A study of Mus musculus with 3 samples.

Results

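Aged mouse oocytes matured with a stem cell secretome were compared with aged oocytes matured without it, transcript by transcript. The members were the listed RefSeq transcripts with at least 10 TPM in either of these libraries, 2239 of 9126 listed transcripts. TPM is a length-corrected share: the values of all transcripts of a library, listed or not, sum to 1000000. All listed rows, repeated ones included, were also summed per gene symbol, and 1931 of 6104 symbols reached 10 TPM in this sum. The measure throughout is the ratio of TPM in treated aged oocytes (aged-sec) to TPM in untreated aged oocytes (aged), so that a ratio below 1 means less in the treated library.

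The study sequenced 3 libraries of ICR mouse oocytes at metaphase II: young, aged and aged-sec, with 1 library in each group. Every library pooled 20 oocytes from 4 mice, and the oocytes were matured in M16 medium for 16 to 18 h. The secretome, mixed 1 to 1 with the medium, is the medium conditioned by mesenchymal stem cells of human umbilical cord. The ages of the mice are not in the labels, and group membership follows the sample titles, because the treatment field of every sample names the secretome. A pool is 1 measurement: no value below has a replicate error, no difference was tested, and each difference is one between these libraries. Since TPM is a share of a whole, fewer copies of an mRNA per oocyte and more of other mRNAs cannot be told apart. Nor can a difference in the amount of an mRNA be told apart from one in its poly(A) tail, which primes the cDNA.

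A fully grown oocyte makes almost no new RNA. Between the germinal vesicle stage and metaphase II it lives on stored maternal mRNAs, some of which are given longer poly(A) tails and translated while others lose their tails and are degraded. The metaphase II arrest that follows is held by high activity of the cyclin B and Cdk1 kinase and by a block of the anaphase-promoting complex, kept up through the Mos, MAP kinase pathway. Brain-derived neurotrophic factor (BDNF), which the series' title places in the secretome, is a growth factor that acts through the receptor TrkB, the product of Ntrk2, and from there on MAP kinases and PI3 kinase. The comparison addresses how the secretome shifts the transcripts of aged oocytes.

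The deposited table holds only transcripts whose aged value was at least 1.2 times the young value, and 0 rows hold a zero. The direction of aged against young was thus set by the choice of rows, and a ratio of aged-sec to aged below 1 in this table cannot be told apart from the effect of choosing high aged values. Listed transcripts held 22.9% of the young library's TPM, 32.5% of the aged and 32.1% of the aged-sec library's. Of 12 oocyte markers 5 were listed. Their summed TPM was 629 in the young, 887 in the aged and 851 in the aged-sec library, most of it from Bmp15 (585, 817 and 799 TPM). Kit had 19.0, 23.2 and 26.85 TPM and Zp2 20.5, 39.3 and 20.5 TPM. Gdf9 and Ddx4 were under 10 TPM, with ratios of aged-sec to aged of 0.655 and 0.246. Of 14 cumulus and granulosa cell markers 3 were listed, with sums of 2.13, 4.77 and 3.25 TPM, and 0 of them reached 10 TPM. Markers of theca and stroma (3 of 7 listed) summed to 2.33, 4.33 and 3.16 TPM and those of endothelium (2 of 3 listed) to 2.52, 5.42 and 3.53 TPM, while 0 of 5 leukocyte and 0 of 3 erythroid markers were listed. The part of other cells in the differences was not tested, and the read depth is unknown from TPM.

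Most members were at a similar or slightly lower level in the treated oocytes. The median ratio was 0.877 over symbols, with the middle 50% between 0.760 and 0.992, and 0.884 over single transcripts. Of the symbols 75.8% (1463) had a ratio below 1 and 24.2% (467) a ratio above 1; of the transcripts the shares were 71.8% and 28.1%. Of all symbols, 1695 (87.8%) stood within 1.5-fold of the aged level. At least 2-fold lower were 49 symbols (2.54%) and at least 2-fold higher 4 symbols (0.207%), together 2.74%. Over single transcripts the counts were 77 lower (3.44%) and 6 higher (0.268%) of 2239, together 3.71%. Setting the median ratio of the transcripts to 1 multiplies the aged-sec values by 1.13, a shift of 0.18 on the log2 scale, and leaves 33 symbols lower and 7 higher. A value is therefore set beside 0.877 as well as 1, and neither is known to be the level of no difference. The median also moved with the level, from 0.860 below 100 TPM to 1.02 at 1000 TPM or more. At the minimum of 10 TPM, Sec16a (10 TPM in aged and 4.2 in aged-sec for a predicted transcript) was just inside and Sepsecs (9.98 and 3.93 TPM for its curated transcript) just outside. At the 2-fold limit, Vti1b (18.3 and 9.17 TPM) was just inside and Nfil3 (16.6 and 8.31 TPM) just outside among lower symbols, with Fnip1 (7.62 and 15.5 TPM) and Ss18 (13.6 and 25.2 TPM) on either side among higher ones.

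**Figure D1:**
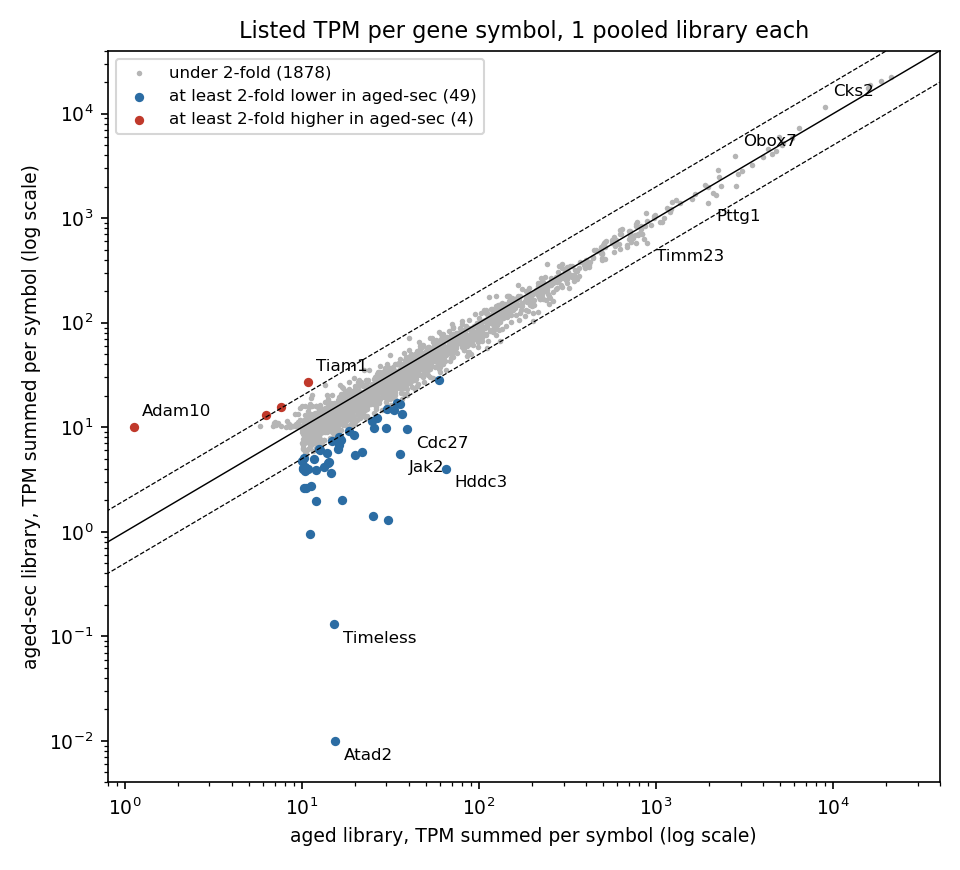
TPM summed per gene symbol in the aged library (x axis, log scale) and in the aged-sec library (y axis, log scale), 1 point per symbol and 1 pooled library per axis. The solid line marks equal TPM and the dashed lines a 2-fold difference; the 49 lower symbols lie below the lower line and the 4 higher ones above the upper line, all under 100 TPM.

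The 12 symbols with the lowest ratios had from 0.000649 to 0.248 of the aged TPM in aged-sec, and they are described here by what they do, with 3 further lower symbols from the gene lists. Atad2, a bromodomain ATPase that binds acetylated histones, stood at 0.01 TPM in the young, 15.4 in the aged and 0.01 in the aged-sec library, where 0.01 TPM is the smallest step of the table. Timeless, a component of the complex that protects replication forks, had 0.02, 15.2 and 0.13 TPM in the same order. Both were therefore near 0 in young and aged-sec and above 10 TPM in the aged library alone. They are members through the aged library only, and the rows were chosen for high aged values. A return to the young level cannot be told apart from that choice, here or in the genes below. Top3b, a topoisomerase of DNA and RNA, had 7.70 TPM in the young, 11.9 in the aged and 1.95 in the aged-sec library. Uhrf1, which guides maintenance methylation of DNA and was lower with a ratio of 0.321, stood at 3.80, 12.01 and 3.86 TPM, so that young and aged-sec were almost equal.

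Atp2b1, a calcium pump of the plasma membrane, had 2.30 TPM in the young, 25.1 in the aged and 1.41 in the aged-sec library. Jak2, the tyrosine kinase of many cytokine receptors, stood at 3.30, 35.99 and 5.60 TPM. In Atp2b1 aged-sec was below young and in Jak2 above it. That the aged library was the highest in both is set by the choice of rows and symbols. Tspan9, a tetraspanin, had 7.63, 11.1 and 0.960 TPM, and here aged-sec lay far below both other libraries. Ripk1, a kinase at the branch between survival and death after TNF receptor activation, had 7.58, 12.5 and 6.13 TPM, a ratio of 0.490. Its predicted transcript (11.3 TPM in aged, 5.97 in aged-sec) had a ratio of 0.528, and its curated one (1.19 and 0.160 TPM) 0.134.

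Cdc27, a core subunit of the anaphase-promoting complex, stood at 26.1 TPM in the young, 39.4 in the aged and 9.59 in the aged-sec library. Trim32, a RING-type ubiquitin ligase, had 9.84, 16.8 and 2.02 TPM. In both genes aged-sec was below the young as well as the aged library. Racgap1, part of the centralspindlin complex of the spindle midzone, had 11.2, 16.1 and 8.05 TPM, a ratio of 0.499 at the limit of the 2-fold rule. In the secretory pathway Tmed5, a p24 cargo protein of vesicles between endoplasmic reticulum and Golgi, had 6.49, 11.2 and 2.73 TPM. Jagn1, a membrane protein of the endoplasmic reticulum, had 6.87, 10.6 and 2.63 TPM. The remaining 2 of the 12 lowest were Hddc3, an HD-domain hydrolase with 9.56, 65.2 and 4.02 TPM, and Tdrp, a testis development related protein with 22.8, 30.6 and 1.30 TPM. Hddc3 had the highest aged level of the 49 lower symbols. The values of Atad2, Timeless, Tspan9, Trim32, Racgap1, Tmed5, Jagn1, Hddc3 and Tdrp each came from a sole listed transcript.

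Higher symbols were few and mostly close to the 10 TPM minimum. Adam10, a membrane metalloprotease that sheds the outer parts of surface proteins, had 0.300 TPM in the young, 1.12 in the aged and 10.1 in the aged-sec library, from 1 predicted transcript. Tiam1, an exchange factor that activates the GTPase Rac, stood at 0.680, 10.8 and 27.4 TPM. Otud4, a deubiquitinase, had 3.48, 6.26 and 13.0 TPM. Fnip1, a partner of folliculin in nutrient signalling, had 0.120, 7.62 and 15.5 TPM. In these 4 symbols the aged-sec library was the highest of the 3 and the young one the lowest, an order set by the choice of rows and symbols.

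Below the 2-fold limit the next highest ratios included genes of chromatin, mRNA control and redox repair. Ss18, a subunit of the BAF chromatin remodelling complex, had 0.890 TPM in the young, 13.6 in the aged and 25.2 in the aged-sec library. Cpeb1, which binds the 3' ends of dormant maternal mRNAs and controls their polyadenylation, stood at 8.60, 11.3 and 19.2 TPM. Fbxw7, the substrate receptor of a ubiquitin ligase for cyclin E, had 4.48, 5.79 and 10.2 TPM. The ratios of these 3 were 1.86, 1.70 and 1.77. The histone genes H4c4 (29.8, 40.3 and 71.5 TPM) and H2bc18 (4.13, 7.01 and 11.2 TPM) had ratios of 1.77 and 1.60. Histone genes share near-identical coding sequences, so how the counting split reads among them is uncertain. Msrb3, which reduces oxidized methionine, had 7.55, 9.94 and 15.9 TPM, and Prr5l, a partner of mTOR complex 2, had 3.42, 6.91 and 11.0 TPM. The X-linked gene Xlr5b had 5.01, 11.4 and 20.3 TPM. Listed were 1 of 16 annotated mRNAs of Cpeb1, 1 of 7 of Fbxw7 and 2 of 6 of Ss18. For Msrb3 it was 1 of 2, for Prr5l 1 of 9 and for Xlr5b 2 of 10. The levels of these whole genes are not known here.

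**Figure D2:**
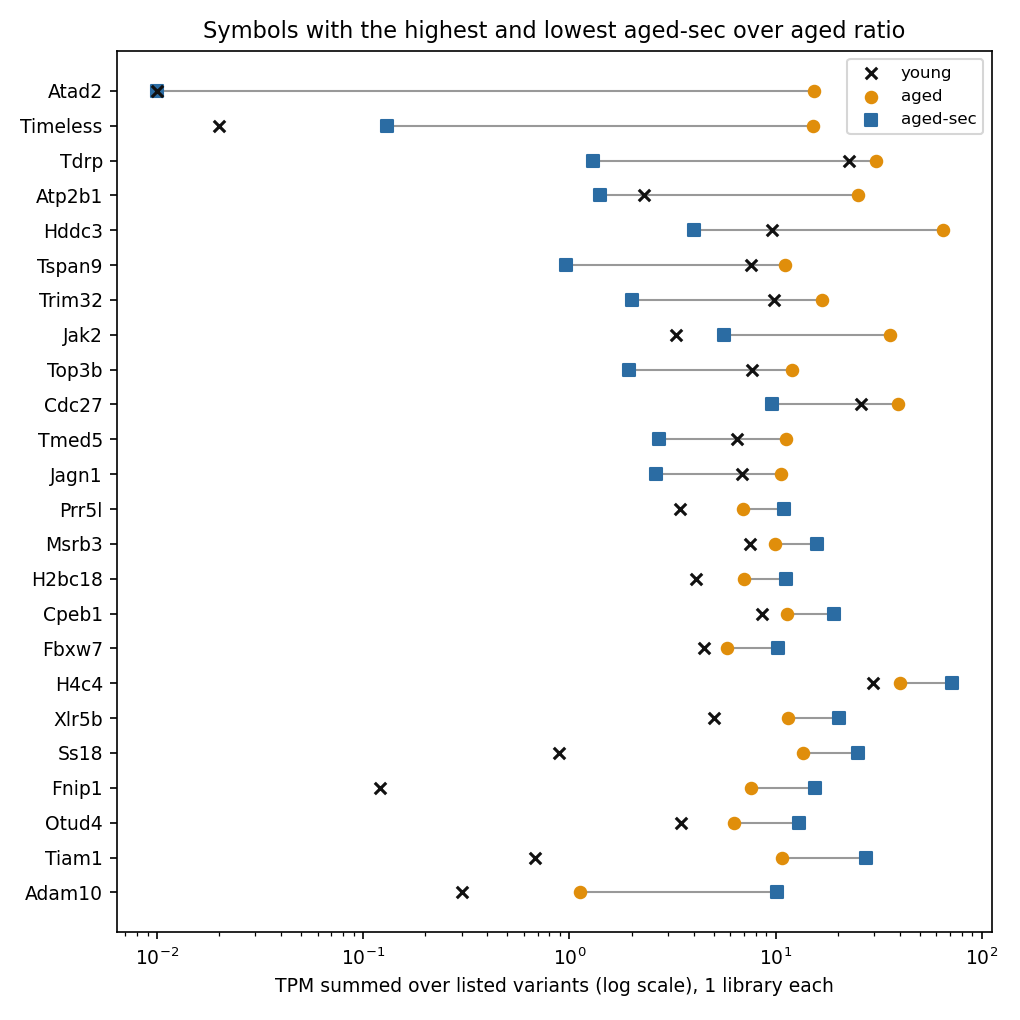
TPM summed over listed variants (x axis, log scale) for the 12 symbols with the lowest and the 12 with the highest ratio of aged-sec to aged, 1 pooled library per mark. Crosses are young, circles aged and squares aged-sec oocytes. Among the lower symbols the aged circle is always the rightmost mark, and among the higher ones the aged-sec square is. The choice of rows (aged over young) and of symbols (aged-sec over aged) sets this order.

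A 2-fold difference of a transcript often did not carry over to its gene. The 77 lower transcripts belonged to 73 symbols. For 30 of them no other transcript of the symbol was listed, so that the transcript and the sum are the same value. Of the 47 with other listed variants, 9 had a sum that was at least 2-fold lower too and 38 did not. The sums of the 34 symbols behind these 38 transcripts had ratios from 0.509 to 1.02 with a median of 0.649. Of the 6 higher transcripts 3 were the sole listed ones, and of the other 3 only that of Tiam1 had a sum that was 2-fold higher.

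Clk2 and Zc3h14 show this most plainly, since the variants concerned differ by a short stretch. Clk2 is a kinase that phosphorylates SR splicing factors, and both of its annotated mRNAs were listed. NM_001163432 had 11.3 TPM in the young, 14.0 in the aged and 0.0700 in the aged-sec library. NM_007712 stood at 19.3 TPM in aged and 24.2 in aged-sec, so that the sum of the gene went from 33.2 to 24.3 TPM, a ratio of 0.730. In GRCm38 the coding sequences of their GENCODE counterparts differ by 3 bases at the start of exon 3, on the plus strand of chromosome 3 at positions 89168695 to 89168697. The lines below show the coding bases on either side of the junction of exons 2 and 3, within chr3:89167169-89168733, with the extra bases in capitals.
Clk2 NM_001163432: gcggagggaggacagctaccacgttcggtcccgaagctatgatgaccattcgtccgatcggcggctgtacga
Clk2 NM_007712: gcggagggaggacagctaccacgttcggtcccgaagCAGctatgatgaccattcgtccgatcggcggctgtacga
The transcripts have 26 unshared bases in all, 3 of them here and the others at their ends, so a read from elsewhere fits both. The ratios of the variants lay 251-fold apart.

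Zc3h14 encodes a zinc finger protein that binds poly(A) tails. Its variant NM_001160107 had 10.5 TPM in aged and 3.26 in aged-sec, and NM_001008506 had 10.9 and 14.3 TPM. The sum over the listed variants went from 37.1 to 26.4 TPM. The GENCODE counterpart of NM_001008506 has 75 more coding bases, all of exon 10 on the plus strand of chromosome 12 at 98774245 to 98774319, within chr12:98763943-98783617. They are shown in capitals between the ends of the neighbouring exons.
Zc3h14 NM_001008506: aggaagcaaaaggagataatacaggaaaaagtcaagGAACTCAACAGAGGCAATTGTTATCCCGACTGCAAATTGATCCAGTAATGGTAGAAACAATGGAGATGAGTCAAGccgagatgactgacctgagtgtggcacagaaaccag
Zc3h14 NM_001160107: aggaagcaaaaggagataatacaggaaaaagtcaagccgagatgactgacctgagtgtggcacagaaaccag
Of this pair, the variant with exon 10 was higher in aged-sec and the one without it lower, with ratios 4.23-fold apart. A further variant, NM_029334, shares 3121 bases with the variant with exon 10 and 3040 with the one without it. It was lower, with 15.3 TPM in aged and 8.49 in aged-sec. The pair therefore does not show how exon 10 as a whole differed between the libraries. Both genes were chosen for display after their values were seen.

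In other genes too the variants lay on opposite sides of 1. Ttk, the spindle checkpoint kinase Mps1, had NM_001110265 at 21.8 TPM in aged and 8.95 in aged-sec, and NM_009445 at 18.9 and 32.4 TPM. The sums of Ttk, 46.3 and 47.0 TPM, were nearly equal. Pacsin2, which bends membranes in endocytosis, had a predicted variant at 59.9 and 24.8 TPM and another at 60.8 and 81.9 TPM, with sums of 130 and 114 TPM. Tpm3, a tropomyosin of actin filaments, had NM_001253738 at 26.7 TPM in aged and 9.98 in aged-sec, while its sum went from 64.5 to 55.5 TPM. In each of these genes the sum differed far less than the variant. Crebbp, the acetyltransferase CBP, had a variant at 26.1 and 12.9 TPM and another at 10.4 and 14.8 TPM. In the other direction, Suco had a variant at 5.41 TPM in aged and 16.7 in aged-sec within sums of 40.1 and 55.4 TPM, and Ccar1 a variant at 7.49 and 15.8 TPM within sums of 58.0 and 49.8 TPM. Nfrkb, a subunit of the INO80 remodelling complex, had a predicted variant at 16.6 and 0.590 TPM, whereas its 6 listed rows summed to 129 and 85.6 TPM.

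**Figure D3:**
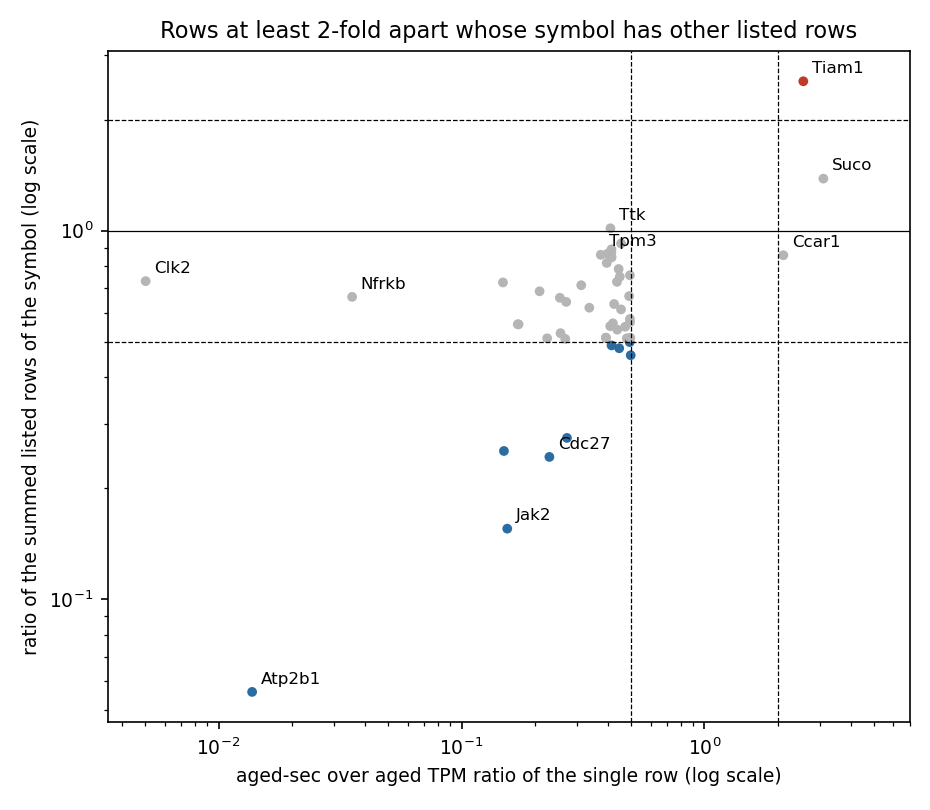
Ratio of aged-sec to aged for single transcripts at least 2-fold apart (x axis, log scale) against the ratio of the summed listed variants of the same symbol (y axis, log scale), for symbols with more than 1 listed row. Blue and red points also had a sum at least 2-fold lower or higher; grey points did not, and Clk2 and Nfrkb lie far to the left with sums at 0.730 and 0.662.

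Most variants of a gene nevertheless had similar ratios. Among 112 pairs of curated variants from 79 genes whose sequences could be compared, the median gap between the ratios was 1.18-fold, and 91 pairs lay within 1.5-fold of each other. Of the pairs 9 were at least 2-fold apart, 2 of 17 with under 200 unshared bases, 5 of 56 with 200 to 1000 and 2 of 39 with 1000 or more. The 2 pairs under 200 bases were those of Clk2 and Zc3h14 shown above. Pairs from 1 gene share reads and are not independent.

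Genes whose annotated mRNAs were all in the table gave a similar picture with far fewer large differences. For 544 symbols every mRNA that RefSeq annotates in GRCm38.p6 was listed, so that the sum covers the whole gene, with repeated rows added in. Their median ratio was 0.908, with the middle 50% between 0.806 and 1.02. Of them 2 were at least 2-fold lower and 0 higher, a share of 0.368%. The 1322 symbols with some mRNAs not listed had a median of 0.858, with 47 lower and 4 higher, a share of 3.86%. The 2 fully listed symbols were Atad2 and LOC100861655, which had 1.38 TPM in the young, 11.7 in the aged and 4.93 in the aged-sec library. Of the 12 lowest symbols 11, Timeless among them with 1 of 10 annotated mRNAs listed, were thus known only in part. The gap was also seen within bands of level: between 10 and 30 TPM 2 of 208 fully listed and 41 of 693 partly listed symbols were 2-fold apart, and between 30 and 100 TPM 0 of 168 and 10 of 434. The number of annotated mRNAs moved with it, with a median of 1 in fully listed and 5 in partly listed symbols, and its part was not tested. This comparison was added after the values were seen.

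**Figure D4:**
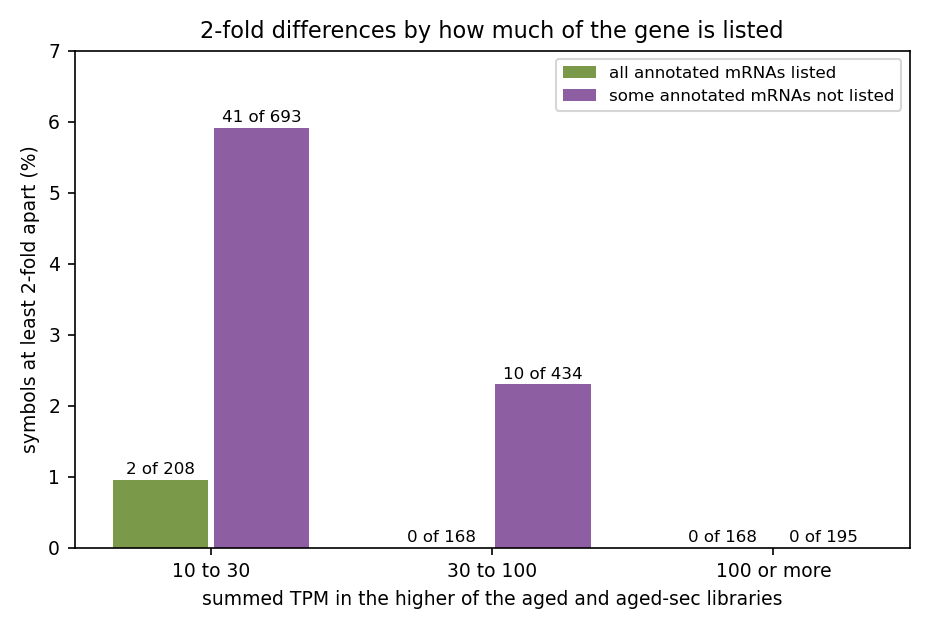
Share of symbols at least 2-fold apart between aged and aged-sec (y axis, percent) by summed TPM in the higher library (x axis), for symbols with all annotated mRNAs listed (green) and with some not listed (purple). Bars start at 0 and the counts stand above them; at 10 to 30 TPM the shares are 0.962% and 5.92%.

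Apart from Atad2, the fully listed genes with a proper name (not Gm, LOC or Rik symbols) had ratios between 0.518 and 1.77. Mrpl40, a protein of the mitochondrial ribosome, had 35.3 TPM in the young, 111 in the aged and 57.8 in the aged-sec library. Dcps, the enzyme that clears caps left by mRNA decay, had 38.9, 55.3 and 29.5 TPM. Ppp1ca, a catalytic subunit of protein phosphatase 1, stood at 19.3, 30.1 and 16.2 TPM with a repeated row in the sum (9.65, 15.04 and 8.10 TPM with it used once), and Sod2, the superoxide dismutase of mitochondria, at 12.7, 17.5 and 10.6 TPM. Their ratios lay between 0.518 and 0.603, and aged-sec was below young in Dcps, Ppp1ca and Sod2. On the higher side, Med21, a Mediator subunit, had 175 TPM in the young, 243 in the aged and 366 in the aged-sec library. Rps15a, of the small ribosomal subunit, had 55.6, 70.8 and 98.0 TPM. Exosc2, a cap protein of the RNA exosome, had 72.5, 167 and 227 TPM, and Cdk1, the kinase of maturation-promoting factor, 3.66, 7.64 and 10.2 TPM. These 8 genes were chosen after their values were seen, from the ends of the fully listed symbols.

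Differences of 2-fold were limited to levels under 100 TPM, and the most abundant mRNAs were slightly more often higher than lower. Of 42 symbols that reached 1000 TPM, 24 had a ratio above 1 (57.1%) and the median was 1.02. In the 330 symbols between 100 and 1000 TPM the median was 0.907, and below 100 TPM it was 0.860 in both bands. At 100 TPM or more 0 symbols were 2-fold apart, against 39 lower and 4 higher of 929 between 10 and 30 TPM and 10 lower of 630 between 30 and 100 TPM.

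In TPM, the 6 largest gains included 4 genes of oocyte-specific families. Cks2, a small subunit of the Cdk1 kinase that meiosis needs, had 7430.3 TPM in the young, 8942 in the aged and 11674 in the aged-sec library, a ratio of 1.31. Obox5, of the oocyte homeobox family, had 13442, 16166 and 18664 TPM (1.15), Obox2 had 10491, 18633 and 20323 TPM (1.09), and Obox7 had 2195, 2778 and 3930.1 TPM (1.41). Fbxw28, an F-box protein of an oocyte gene cluster, stood at 12371, 15706 and 17746 TPM (1.13), and Mphosph6, an exosome-associated phosphoprotein, at 17516, 21222 and 22563 TPM (1.06). All 6 were highest in aged-sec and lowest in young, which the choice of rows and of gains sets in advance. Obox and Fbxw genes have near-identical copies, so the share of each copy is uncertain.

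The 6 largest losses in TPM were those of Rbbp7, Pttg1, Accsl, Rfpl4, Cks1b and Ccnb1. Rbbp7, a histone-binding subunit of several chromatin complexes, had 2001 TPM in the young, 2819.6 in the aged and 2022 in the aged-sec library (0.717). Pttg1, the securin that holds back separase, had 1406, 1966 and 1413 TPM (0.719). In both, aged-sec was nearly equal to young. Rows were chosen for aged values above young ones, so this closeness cannot be told apart from that choice. Ccnb1, cyclin B1, stood at 1643, 2083 and 1754 TPM (0.842), and Cks1b at 3915, 4767 and 4428 TPM (0.929). Accsl had 1683, 2174 and 1654 TPM and Rfpl4, an oocyte RING finger gene, 3024, 4485 and 4098 TPM.

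In their listed transcripts, genes of neurotrophin signalling were mostly at low levels, and 4 of 16 listed genes reached 10 TPM. Ntrk2, the gene of TrkB, had 0.0900 TPM in the young, 0.160 in the aged and 0.100 in the aged-sec library, levels too low to read a ratio from. Of its 9 annotated mRNAs 1 was listed, so the level of the whole gene is not known here. Pdpk1, which activates Akt below PI3 kinase, had 10.2, 28.4 and 14.6 TPM, and Crebbp 12.4, 36.5 and 27.7 TPM. Pik3r1, a regulatory subunit of PI3 kinase, stood at 25.6, 41.9 and 35.9 TPM, and the docking protein Gab1 at 15.9, 27.9 and 32.7 TPM. The median ratio of the 4 was 0.807, with 0 of them 2-fold apart, beside 2.74% of all symbols. Bdnf and Ngfr were not analysed here.

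In the MAP kinase cascade 7 of 22 listed genes reached 10 TPM. Of the 7, 4 had a ratio below 1, beside 75.8% of all symbols, and 3 a ratio above it. At least 2-fold apart were 0 of the 7, beside 2.74% of all symbols. The median of the 7, 0.891, was near the 0.877 of all symbols and lies above 1 after median scaling. Map2k4 and Mapk8, a kinase pair of the JNK branch, stood at 10.4 and 23.2 TPM in the young, 24.96 and 47.1 in the aged, and 19.2 and 41.3 in the aged-sec library. The 3 with a ratio above 1 were Map4k5 (80.3 TPM in aged, 83.4 in aged-sec) and the negative regulators Rasa1 (47.1 and 50.7) and Spred2 (20.9 and 24.7). Mos and Mapk3 were not analysed here, and mRNA levels do not show the activity of a kinase.

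Of 18 genes of metaphase II arrest and cyclin control, 14 had a ratio below 1 and Cdc27 alone was 2-fold lower, with a list median of 0.869. The spindle and kinetochore list had a ratio below 1 in 25 of 27 genes, with a median of 0.839 and 1 gene, Racgap1, past 2-fold. Aurkc, the Aurora kinase of meiosis, stood at 610 TPM in the young, 837 in the aged and 703 in the aged-sec library, and Kif23, the motor of centralspindlin, at 278, 366 and 279 TPM. Nusap1 and Ttk had ratios above 1, 1.13 and 1.02. Of all symbols 75.8% had a ratio below 1 and 2.54% were at least 2-fold lower. Cohesin and securin genes had a median of 0.902 over 7, with Esco2, an acetyltransferase of cohesin, at 407, 514 and 529 TPM.

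Centrosome, motor and tubulin genes had a ratio below 1 in 24 of 28 cases, beside 75.8% of all symbols, with a median of 0.838. Dync1i2, an intermediate chain of dynein, was the 1 gene of the list past 2-fold, beside 2.54% of all symbols at least 2-fold lower. It had 10.01 TPM in the young, 26.4 in the aged and 12.1 in the aged-sec library. Plk4, the kinase of centriole duplication, had 64.1, 99.2 and 65.3 TPM with a repeated row in the sum, and 32.1, 49.6 and 32.7 TPM with it used once. In the actin list 12 of 18 were below 1, with a median of 0.877. Actb, cytoplasmic actin, was on the other side with 29.4, 125 and 180 TPM, and so was Arpc2 of the Arp2/3 complex with 47.3, 79.8 and 103 TPM. Actb and Arpc2 were picked after their values were seen.

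Oocyte-specific maternal genes stood close to the aged level. The list of 35 genes (from the Obox, Fbxw, Nlrp, Oog and Tcl1b families, Bmp15 and others) had a median ratio of 0.978 and a range from 0.727 to 1.41. Of them 19 were below 1, 16 above and 0 past 2-fold. Among all symbols 75.8% were below 1 and 2.74% at least 2-fold apart. The list leaves out Fbxw25, Fbxw26 and Fbxw27, with ratios of 0.970, 0.923 and 0.656. Those genes are counted with the ubiquitin ligases and among the other symbols below. Bmp15, a growth factor the oocyte secretes, had 585 TPM in the young, 817 in the aged and 799 in the aged-sec library. Nlrp14, of a family of maternal proteins, stood at 516, 931 and 867 TPM, and Oog1 at 1251, 1969.7 and 2002 TPM. These genes were also more abundant than most, and the level moved with the ratio: between 100 and 1000 TPM the 17 listed had a median of 0.948 against 0.903 for 313 other symbols, and at 1000 TPM or more the 12 listed had 1.09 against 1.01 for 30 others. The part of the level was not tested further. Gdf9, the partner of Bmp15, was under the minimum with 4.36, 6.81 and 4.46 TPM. Of its 4 annotated mRNAs 1 was listed, so the level of the whole gene is not known here.

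At the egg surface the values were uneven. Of 7 genes 6 had a ratio below 1, with Atp2b1 2-fold lower, Adam10 2-fold higher and a median of 0.860. Over all symbols 75.8% had a ratio below 1, 2.54% were at least 2-fold lower and 0.207% higher. Zp2, a protein of the zona pellucida that sperm bind to, had 20.5 TPM in the young, 39.3 in the aged and 20.5 in the aged-sec library, from 1 predicted variant. Slc39a10, a zinc importer, stood at 117, 234 and 205 TPM, and Snap23, a SNARE of exocytosis, at 40.2, 51.6 and 44.7 TPM. Zp3 was not analysed here.

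Genes that store and degrade maternal mRNA had a ratio below 1 in 25 of 32 cases, beside 75.8% of all symbols, with a median of 0.857. Past 2-fold were 0 of them, beside 2.74% of all symbols. Of the 32, 18 lay below the median of all symbols. Within the CCR4-NOT complex, which removes poly(A) tails, the catalytic subunit Cnot7 had 418 TPM in the young, 616 in the aged and 561 in the aged-sec library, and another, Cnot6l, 81.7, 125 and 145 TPM. The ratios were 0.910 and 1.16, both above the median of all symbols, but symbols between 100 and 1000 TPM had a median of 0.907. Cnot9, a subunit that contacts regulators of the complex, had 97.0, 125 and 76.8 TPM. Pabpn1l, a poly(A)-binding protein of the oocyte, stood at 226, 313 and 339 TPM. Btg4, the adaptor of the complex in maternal mRNA decay, was under the minimum with 1.49, 2.21 and 0.910 TPM over its listed variants.

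Splicing genes had a median of 0.881, close to that of all symbols, with 35 of 49 below 1, beside 75.8% of all symbols. Past 2-fold were Hnrnpa2b1 (5.77 TPM in young, 14.2 in aged, 4.64 in aged-sec) and Prpf39, a U1 snRNP protein (8.58, 14.8 and 7.31 TPM). Each value is that of 1 predicted transcript, of 9 annotated mRNAs in Hnrnpa2b1 and 5 in Prpf39. Over all symbols 2.54% were at least 2-fold lower. The small Sm proteins, the ring that holds spliceosomal RNAs, were on the higher side. Snrpg had 3802 TPM in the young, 4931 in the aged and 6013 in the aged-sec library, Snrpe 3083, 4309 and 4615, Snrpd1 1075, 1296 and 1486, and Snrpf 572, 775 and 918. The ratios of these 4 lay between 1.07 and 1.22, while those of the SR proteins Srsf5, Srsf7 and Srsf3 were 0.652, 0.759 and 0.927. The SR genes were far less abundant (33.7, 18.9 and 29.4 TPM in aged). Over all symbols the median was 0.860 below 100 TPM, 0.907 between 100 and 1000 and 1.02 at 1000 or more. The part of the level in this contrast was not tested. Snrpd1, Snrpf and the SR proteins were chosen after their values were seen.

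Translation genes were split. Of 19, 12 had a ratio below 1, beside 75.8% of all symbols, and 7 above, with a median of 0.917. Past 2-fold were 0 of the 19, beside 2.74% of all symbols. Eif5a, a factor that relieves stalled ribosomes, had 218 TPM in the young, 346 in the aged and 250.4 in the aged-sec library over 4 listed rows. Eif3e, a subunit of the initiation factor that binds the small ribosomal subunit, stood at 217, 283 and 346 TPM. The ratios were 0.724 and 1.22.

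Chromatin regulators had a ratio below 1 in 26 of 30 cases, beside 75.8% of all symbols, and 17 of the 30 lay below the overall median of 0.877. Their median was 0.821, and Atad2 and Uhrf1 were past 2-fold, beside 2.54% of all symbols at least 2-fold lower. Bmi1, of Polycomb complex 1, stood at 174 TPM in the young, 293 in the aged and 281 in the aged-sec library. Kdm1a, the histone demethylase LSD1, had 11.2, 18.5 and 12.4 TPM, and Brd1, a bromodomain protein of a histone acetyltransferase complex, had 12.1, 19.7 and 29.9 TPM. Kdm1a and Brd1 were picked after their values were seen. DNA repair and checkpoint genes had a median of 0.879 over 25, with Timeless past 2-fold. Chek1, the kinase of the replication checkpoint, had 448, 597 and 623 TPM, and Mdm4, a partner of p53, had 381, 718 and 598 TPM. Tipin, which binds Timeless in the fork protection complex, stood at 46.3, 62.3 and 59.0 TPM, a ratio of 0.946.

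Ubiquitin ligases had a median of 0.926 over 63 genes, with 40 below 1 and 4 past 2-fold, all lower: Trim32, Rnf214 (10.5 TPM in the young, 14.6 in the aged, 3.68 in the aged-sec library), Trim37 (3.44, 10.8 and 3.96), and Rnf19b (15.1, 19.8 and 8.39). Over all symbols 75.8% were below 1 and 2.54% were 2-fold lower. The Trim37 sum holds 1 transcript that the table lists again, and with the repeat used once it had 5.39 TPM in aged and 1.98 in aged-sec, under the minimum, so that its call is lost. Fbxw14, the other most abundant member beside Fbxw28, had 5096, 6427 and 7215 TPM. Deubiquitinases and conjugating enzymes were below 1 in 22 of 30 cases, with a median of 0.843. Uchl3, a small ubiquitin hydrolase, was past 2-fold with 9.57, 16.7 and 7.52 TPM, opposite to Otud4. Proteasome genes had a median of 0.940 over 6. Psma4, of the catalytic core, had 158, 203 and 189 TPM.

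Genes of vesicle transport had a median of 0.881 over 40, of which 31 were below 1 and Tmed5 and Vti1b past 2-fold. Trappc2, a subunit of the tethering complex TRAPP, was on the other side with 486 TPM in the young, 625 in the aged and 707 in the aged-sec library. Small GTPases and their regulators had a median of 0.903 over 32 and 1 gene past 2-fold, Tiam1. The GTPases Cdc42 (132, 255 and 269 TPM) and Rac1 (128, 160 and 139 TPM) had ratios of 1.06 and 0.868. Solute carriers were below 1 in 12 of 15 cases, with a median of 0.832. Slc3a2, the heavy chain of amino acid exchangers, had 250.5, 324 and 213 TPM. Among 19 phosphatases (median 0.888) Ptpre was past 2-fold with 7.04, 10.3 and 4.18 TPM, and Ptp4a1 stood at 238, 293 and 367 TPM. Nuclear pore and transport genes were below 1 in 15 of 17 cases (median 0.874), and zinc finger genes of the Zfp series in 40 of 57 (median 0.928). Over all symbols 75.8% had a ratio below 1, 2.54% were at least 2-fold lower and 0.207% higher.

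The nuclear-encoded respiratory chain had a median of 0.986 over 9 genes, 5 below 1 and 4 above. Cox6b2, a form of a complex IV subunit known from the testis, had 709 TPM in the young, 877 in the aged and 1130 in the aged-sec library, a ratio of 1.29. Cox5a, another subunit of complex IV, stood at 174, 316 and 277 TPM. Mitochondrial ribosome and import genes were below 1 in 11 of 14 cases, beside 75.8% of all symbols, with a median of 0.851. Timm23, the channel of the inner membrane translocase, had 681, 891 and 583 TPM, a ratio of 0.655 at a level where few genes differed so far. In glycolysis and the tricarboxylic acid cycle 6 of 8 were below 1 (median 0.887). Pdhb of pyruvate dehydrogenase had 57.5, 92.8 and 61.4 TPM, whereas citrate synthase, Cs, picked after its values were seen, had 15.3, 30.2 and 40.3 TPM.

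All 8 genes of the unfolded protein and heat shock list had a ratio below 1, with a median of 0.767, and 0 were past 2-fold. Pdia3, a disulfide isomerase of the endoplasmic reticulum, stood at 60.3 TPM in the young, 79.9 in the aged and 59.1 in the aged-sec library, and Dnajb4, a cochaperone, at 33.9, 49.1 and 42.1 TPM. Autophagy genes were below 1 in 7 of 7 cases, with a median of 0.824. Atg5, needed for autophagosome growth, had 430 TPM in the young, 757 in the aged and 697 in the aged-sec library, but its curated transcripts alone had a ratio of 1.60. Antioxidant genes had a median of 0.858 over 5, with Glrx, glutaredoxin, at 281, 408 and 393 TPM and Txnip, the inhibitor of thioredoxin, at 234, 313 and 262 TPM. The 4 apoptosis regulators had a median of 0.814, with Ripk1 past 2-fold in the sum but in no single transcript of at least 10 TPM. Bik, a death-promoting BH3 protein, stood at 12.4, 20.5 and 16.5 TPM, and Cflar, an inhibitor of caspase activation, at 37.9, 73.8 and 79.3 TPM. These lists are small, and of all symbols 75.8% had a ratio below 1 and 2.74% were at least 2-fold apart.

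Over all 30 lists with at least 4 members, the medians ran from 0.767 (unfolded protein and heat shock) to 0.986 (respiratory chain), and all 30 were below 1. Of them 15 lay below the 0.877 of all symbols. With the median transcript ratio set to 1, 19 medians stayed below 1 and 11 lay above it: glycolysis, phosphatases, MAP kinases, translation, cohesin, GTPases, ubiquitin ligases, Zfp genes, proteasome, oocyte factors and respiratory chain. The direction of these 11 lists thus depends on the scaling. Lists share members, and they were written with earlier results of these data known.

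**Figure D5:**
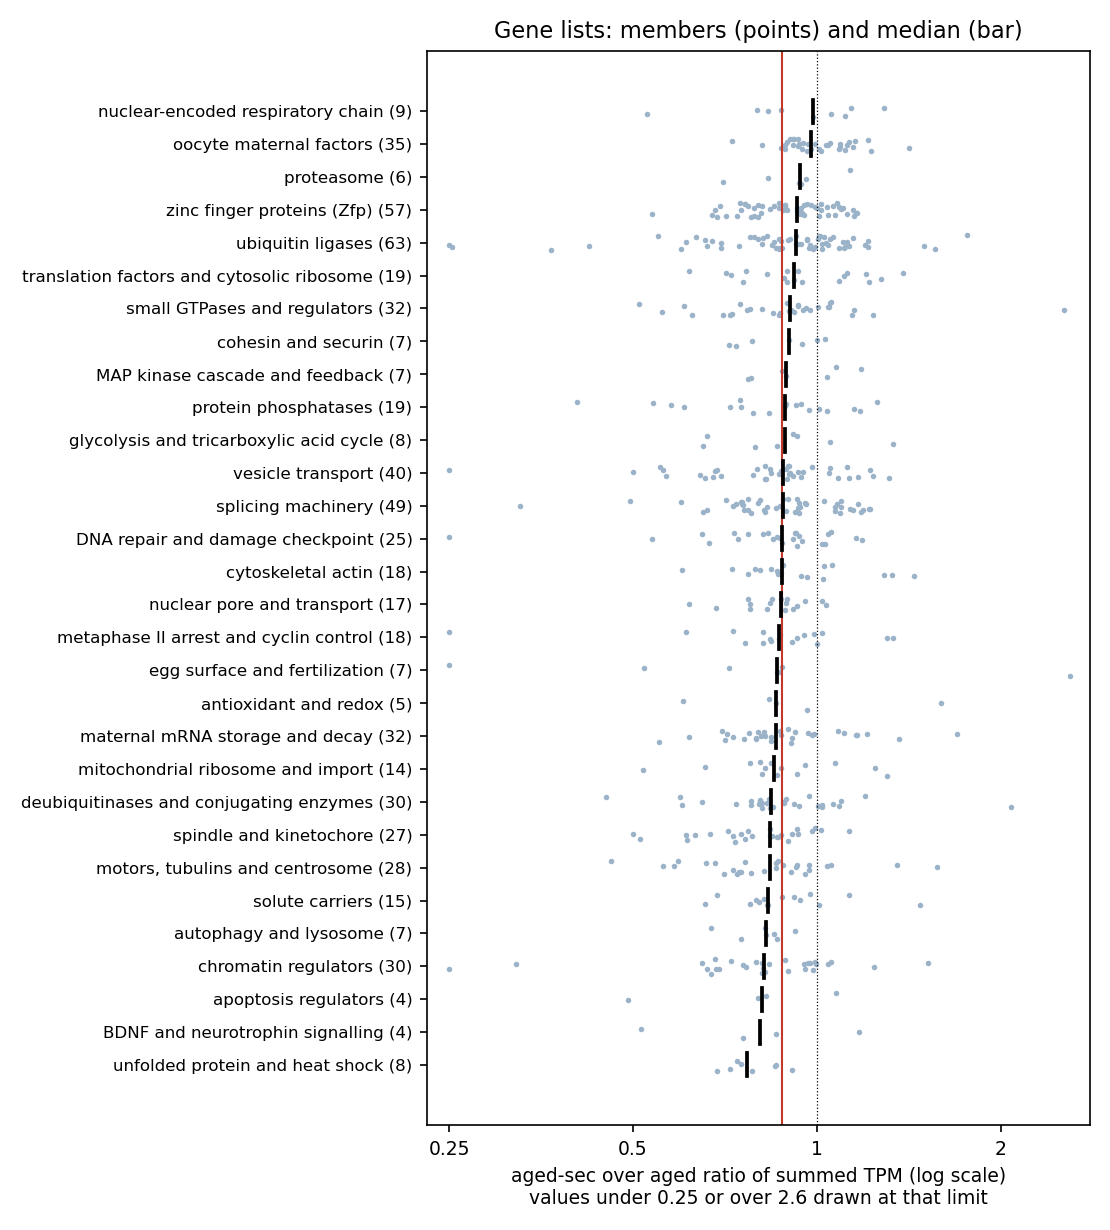
Ratio of aged-sec to aged for each member of 30 gene lists (x axis, log scale), with the number of members in brackets and the list median as a black bar. The red line is the median of all symbols, 0.877, and the dotted line a ratio of 1; every bar is left of the dotted line, with the unfolded protein list at 0.767 lowest and the respiratory chain at 0.986 highest, and points past 0.25 or 2.6 are drawn at those limits.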

How the data were processed

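Per the file headers, the deposited table gives TPM for each RefSeq transcript in 3 libraries, beside the authors' ratios between libraries. The ratio columns were not used; the deposited aged-sec over aged ratio differed from the quotient of the TPM by at most 6.64e-07 of its value. Per the labels' protocols, cDNA was made with SMART-Seq chemistry and fragmented with a transposon. For the aligner, quantifier and build behind the TPM: not given in the sources used here.

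Groups came from the sample titles. TPM were used as deposited, with nothing added, for transcripts and for sums per symbol, at a minimum of 10 TPM in the higher of aged and aged-sec; 2-fold was the size counted. With 1 library per group there is no test and no interval, and the depth is unknown. Transcripts of 97.7% of rows (8920) matched RefSeq GRCm38.p6 by accession, which gave the annotated mRNAs per gene. There were 210 rows that repeat the accession and values of another row, and such repeats are added into the sums of 34 symbols. Variant sequences are those of GENCODE M21 transcripts (GRCm38), matched through its RefSeq table. The code was tested on simulated data. Python 3.11.15 with pandas 2.3.3, numpy 2.4.6, Biopython 1.88 and matplotlib 3.10.9 was used.

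The members, the gene lists and the rule for named genes were chosen with earlier results of these data known. The rule took the 12 lowest and 12 highest symbols, the 8 lowest and 8 highest transcripts, the 6 largest TPM losses and 6 gains, up to 8 symbols with opposite variants, per list up to 4 members past 2-fold and the 2 most abundant, and genes of the study's subject. A gene that this rule names is not reported here. Other genes named in the text, including all remaining members of the neurotrophin list and those MAP kinase genes beyond the most abundant, were chosen after their values were seen. Kinases and other genes that only matched a family's name pattern were removed from 3 lists after their values were seen.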

Additional observations from a re-analysis of the deposited data

How the results depend on the processing

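All counts depend on the minimum and the size chosen, and with 1 pooled library per group none has an error. Lower and higher counts are given in that order. With a minimum of 5 TPM they were 173 and 19 transcripts and 109 and 11 symbols, with 20 TPM 29 and 1 transcripts and 16 and 1 symbols, with 50 TPM 3 and 0 transcripts and 2 and 0 symbols, and with no minimum 1732 and 244 transcripts and 1015 and 132 symbols. At 1.5-fold they were 276 and 41 transcripts and 217 and 20 symbols, and at 3-fold 31 and 2 transcripts and 21 and 1 symbols. With 1 TPM added, 3 transcripts and 2 symbols were higher. With the median transcript ratio set to 1, 54 and 12 transcripts and 33 and 7 symbols were lower and higher. Curated transcripts alone gave 44 and 3 transcripts and 33 and 3 symbols, and only 30 of the 53 symbols called in the main setting stayed called. Symbols with every annotated mRNA listed gave 2 and 0. The other alternatives (0.5 TPM added, equal listed sums, repeated rows once) kept each of these counts within 1.5 times; with repeated rows used once, Trim37 was no longer called and Nfya (0.486) was. Of 119 named genes and transcripts 0 changed direction while 2-fold apart; 16 of 698 of their values under the alternatives moved by over 1.5 times. These include, with curated transcripts alone, Ripk1 at 0.134, Crebbp at 0.493, Tpm3 at 0.374, Fndc3a at 0.443, Rbm44 at 1.14 and Zfp131 at 1.99. No paired analysis was possible because each group has 1 library.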

Other observations

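Of the listed transcripts 6887 were under 10 TPM in both aged and aged-sec, and their ratios spread more widely. Between 1 and 10 TPM the median ratio over 3966 transcripts was 0.802, with 699 at least 2-fold lower and 85 higher, and 60.2% lay within 1.5-fold. Under 1 TPM the median over 2921 transcripts was 0.722, with 956 lower and 153 higher, and 44.5% lay within 1.5-fold. Above the minimum, curated, predicted and copied transcripts had medians of 0.879 over 1532, 0.899 over 634 and 0.818 over 73.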
